A study of Homo sapiens with 8 samples.

Results

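Genes that write, read and erase histone acetylation, and those of chromatin remodellers and AT-rich interaction domain (ARID) proteins, were examined together. They carried 52 PML::RARA promoter peaks in induced U937-PR9 cells. These peaks were taken by gene symbol. The symbols begin with HDAC, SIRT, KAT, BRD, CHD or ARID followed by a digit, or with BRPF or SMARC, or are EP300 or CREBBP. The 52 peaks belonged to 46 genes on 17 chromosomes, among 7169 peaks with a gene symbol and 15412 peaks in all.

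U937-PR9 is a monocytic line that carries a PML::RARA transgene, the fusion found in acute promyelocytic leukemia, under a promoter that responds to zinc. Cells were given 100 μM ZnSO4 (induced) or sterile water (uninduced) for 5 h, and Cut&Run was done with an anti-PML-RARA or an anti-RARA antibody, giving 4 groups of 2 replicates, or 8 libraries. Cut&Run releases and sequences the DNA around an antibody-bound protein. The values below come from 1 list, that of the reproducible anti-PML-RARA peaks of induced cells, while peaks of the anti-RARA antibody and of uninduced cells are not used here. The list itself names neither antibody nor condition, and was assigned to this group from the study's account of its peaks. An effect of zinc on its own and an effect of PML::RARA cannot be told apart in induced cells.

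Every peak has 1 width, 1 total signal and 1 largest signal, which is called its height. The units of the signal are arbitrary, the sequencing depth is unknown and no value is given per replicate. No test was therefore possible between member peaks and other peaks, and the comparisons are descriptions of this list. The 95% intervals of shares (Wilson's method) reflect only how many peaks or genes were counted. Positions are on hg19.

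Acetyltransferases place acetyl groups on lysines of histone tails, and histone deacetylases and sirtuins take them off. Bromodomain proteins bind the acetylated lysines, and the CHD, SWI/SNF and ISWI remodellers use ATP to move or evict nucleosomes. RARA fusion proteins are known for their recruitment of corepressor complexes that contain histone deacetylases. Some of the genes counted here, HDAC1, HDAC2 and HDAC3 among them, encode parts of such complexes.

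The motif AGGTCA, the core to which retinoic acid receptors bind, was read around the highest peak that held it within 200 bp of the apex, the point of largest signal, in 4 of the groups. These 30-base stretches are centred on the match nearest to the apex and need not reach the apex itself, with the motif in capitals and the strand on which it reads.

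HDAC10: ggcctggtgcacAGGTCAggacgggggcag
SIRT3: ctctcgccccggAGGTCAaacctggagcca
BRD8: attagaactcagAGGTCAagcagaagcgaa
SMARCD2: gtcagaggtctaAGGTCActtaggggcttc

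They are at chr22:50689184-50689213 (minus strand), chr11:236561-236590 (plus), chr5:137514635-137514664 (plus) and chr17:61920554-61920583 (plus). Of these 4, the SIRT3 match was the nearest to its apex, at 12 bp, and the BRD8 and SMARCD2 matches the farthest, at 34 bp. Each of these 4 stretches occurs 1 time in the genome. Peaks of CHD and ARID genes held no AGGTCA in this window. A stretch around the GC box, GGGCGG, is therefore shown for the highest peak with a GC box in each of these groups. CHD9, whose peak was as high as that of CHD2, had none in its window.

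CHD2: tctgacgtcacgGGGCGGaggctgccgaag
ARID3B: aaagggaccgggGGGCGGggtgggacgagg

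The CHD2 stretch is at chr15:93447592-93447621 and that of ARID3B at chr15:74833423-74833452, both read on the minus strand, 86 and 25 bp from the apex. The ARID3B window held 11 GC boxes. The last set are the 4 member peaks with GAGGAAGT, a site of the type bound by PU.1, the ETS factor of the myeloid lineage. The GC box and PU.1 sets were chosen after the values were seen.

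HDAC10: ctcacaggcttGAGGAAGTgacagggtggc
SIRT3: agaggcgagtaGAGGAAGTtccctagtctg
CHD9: agctggagccaGAGGAAGTgaggctcagac
SMARCE1: ccgcagcgaccGAGGAAGTggcgggaggtg

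These stand at chr22:50689042-50689071 (minus strand), chr11:236522-236551 (plus), chr16:53133066-53133095 (plus) and chr17:38804373-38804402 (plus). The HDAC10 match was 163 bp from the apex and the other 3 were 11 to 27 bp from it. HDAC10 and SIRT3 thus held both AGGTCA and GAGGAAGT.

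A promoter peak was more frequent over these families than over protein-coding genes at large. Of 72 protein-coding genes whose symbols meet the rule, 46 carried a promoter label (63.9%, interval 52.4 to 74.0%), against 6025 of 20090 protein-coding genes (30.0%). Genes were not matched on expression, which was not analysed here. BRD3OS and CHD9NB meet the rule by name only and are not known as bromodomain or remodeller proteins.

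**Figure D1:**
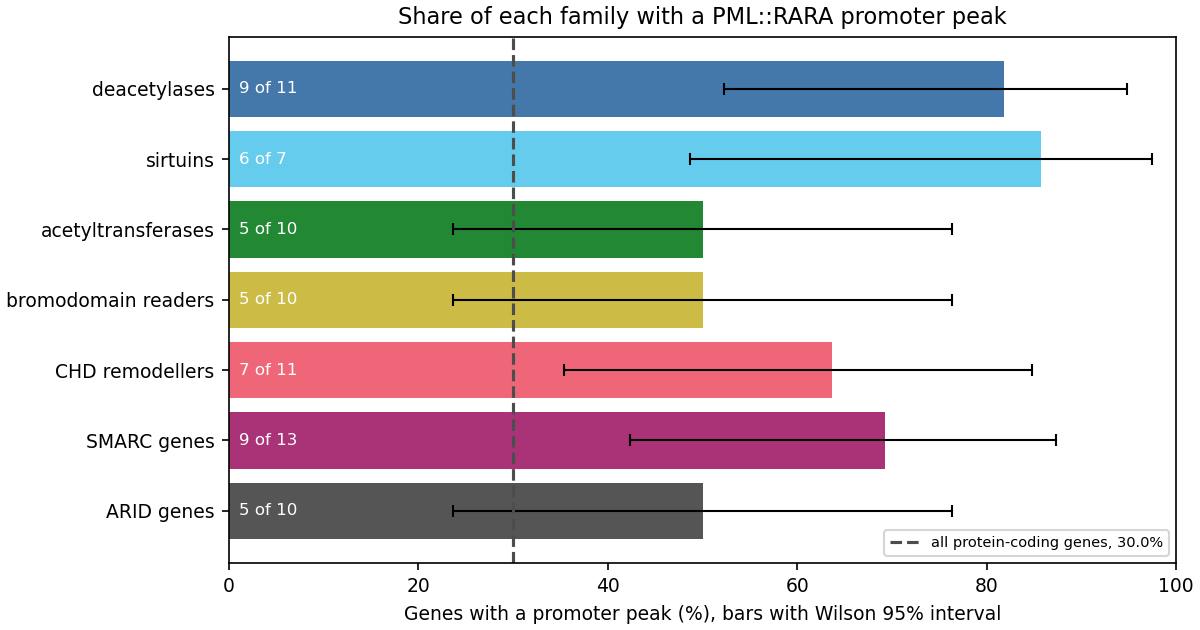
Share of the protein-coding genes of each family with a PML::RARA promoter peak, in percent, with Wilson 95% intervals as error bars and the numbers of genes in the bars. The dashed line is the share of all protein-coding genes, 30.0%; the shares ran from 50.0% in 3 families to 85.7% in the sirtuins.

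Among the genes that remove acetyl groups, 15 of 18 were labelled. These were 9 of 11 zinc-dependent deacetylases, namely HDAC1, HDAC2 and HDAC3, the catalytic subunits of nuclear corepressor complexes, HDAC4, HDAC5, HDAC6, HDAC7, HDAC10 and HDAC11. HDAC8 and HDAC9 had no peak near a start site, the nearest apex being 168259 and 396698 bp away. Of 7 sirtuins, the NAD-dependent deacylases, SIRT1, SIRT2, SIRT3, SIRT5, SIRT6 and SIRT7 were labelled and SIRT4 was not, with the nearest apex at 9367 bp.

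Acetyltransferases were labelled in 5 of 10 cases. EP300, KAT5 (the catalytic subunit of the TIP60 complex), KAT6A, KAT6B and KAT8 carried a label, and CREBBP, KAT14, KAT2A, KAT2B and KAT7 did not. The paralogs EP300 and CREBBP, both transcriptional coactivators, differed in this list. The EP300 apex was 819 bp upstream of a start site, whereas the apex nearest to a CREBBP start was 32108 bp away. Of the bromodomain group, 5 of 10 genes were labelled: BRD2, BRD3, BRD3OS, BRD8 and BRPF1, a scaffold of the KAT6 complexes. BRD1, BRD7, BRD9 and BRPF3 were among those without a label. BRD2 and BRD3 are related readers of acetylated histones, and both were labelled.

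Of the CHD genes, CHD1, CHD1L, CHD2, CHD3, CHD4, CHD6 and CHD9 were labelled (7 of 11), and CHD5, CHD7, CHD8 and CHD9NB were not. CHD3 and CHD4 are alternative ATPases of NuRD, a complex that also holds HDAC1 and HDAC2. All 4 of these genes had a labelled peak, while the related CHD5 did not. Of 10 other NuRD subunit genes, which the rule does not take, 6 had one (60.0%, interval 31.3 to 83.2%). The share over all protein-coding genes was 30.0%. MTA1, MTA3, MBD2 and RBBP4 had no label. Of the SMARC genes, 9 of 13 were labelled. SMARCA2 and SMARCA4, the alternative ATPases of SWI/SNF, were both among them, as were the subunit genes SMARCB1, SMARCC1, SMARCC2, SMARCD1, SMARCD2 and SMARCE1, and SMARCAL1, an annealing helicase. SMARCA1 and SMARCA5, the ATPases of ISWI, as well as SMARCAD1 and SMARCD3, were not labelled. The ARID genes, which encode AT-rich interaction domain proteins and not only subunits of remodellers, were labelled in 5 of 10 cases. These were ARID1A, ARID3A, ARID3B, ARID4B and ARID5A. Those without a label were ARID1B, ARID2, ARID3C, ARID4A and ARID5B.

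The absence of a label did not always mean the absence of a peak. Of the 26 genes without one, 8 had an apex within 1 kb of an annotated start site of their own, which gives 54 of 72 genes (75.0%) by this measure, against 7904 of 20090 protein-coding genes (39.3%). The highest was next to ARID2, a subunit of the PBAF form of SWI/SNF, where a peak of height 54 and width 4296 bp had its apex 820 bp from the start and was labelled LINC00938. The peak beside KAT7 had a height of 50, with its apex at 244 bp, and was labelled FAM117A. The peak beside ARID4A had a height of 32 and was labelled PSMA3-AS1. Unlabelled peaks lay near starts of BRPF3 (37 bp, height 26), CHD8 (65 bp, height 33), SMARCA5 (281 bp, height 25), KAT2B (995 bp, height 17) and ARID1B (679 bp from an internal start, height 35). The remaining 18 genes had no apex within 1 kb.

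The heights of the member peaks spread to both sides of those of other promoters. They ranged from 14 to 59 with a median of 29, and other gene-labelled peaks from 13 to 86 with a median of 26. At or above that median were 30 of 52 members (57.7%, interval 44.2 to 70.1%) and 52.3% of the other peaks. The share of high peaks was larger. A height of 44 or more, which marks the top 10% with ties, was reached by 13 of 52 members (25.0%, interval 15.2 to 38.2%) and by 734 other peaks (10.3%). The lowest heights, below 20, held 25.0% of members and 21.4% of others, and the middle range held a smaller share of members, 36.5% against 53.2%.

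Member peaks also stood at or above the median width of other promoters more often than the others did. Their median width was 1359.5 bp, compared with 1106 bp for other gene-labelled peaks, and 37 of 52 were at or above the latter (71.2%, interval 57.7 to 81.7%) against 50.0% of the others. At the upper end the difference was smaller: 8 members (15.4%, interval 8.01 to 27.5%) and 10.0% of others were in the top 10% by width. Among peaks of like height (10 classes), 34 of 52 members (65.4%) reached the median width of their class, against 50.1% of other peaks. Among peaks of like width, 26 of 52 (50.0%) reached the median height of their class, against 52.1%. The total signal of 34 members (65.4%, interval 51.8 to 76.8%) was at or above the median of the others, and the mean signal per base was nearly the same, with medians of 9.09 and 9.08.

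**Figure D2:**
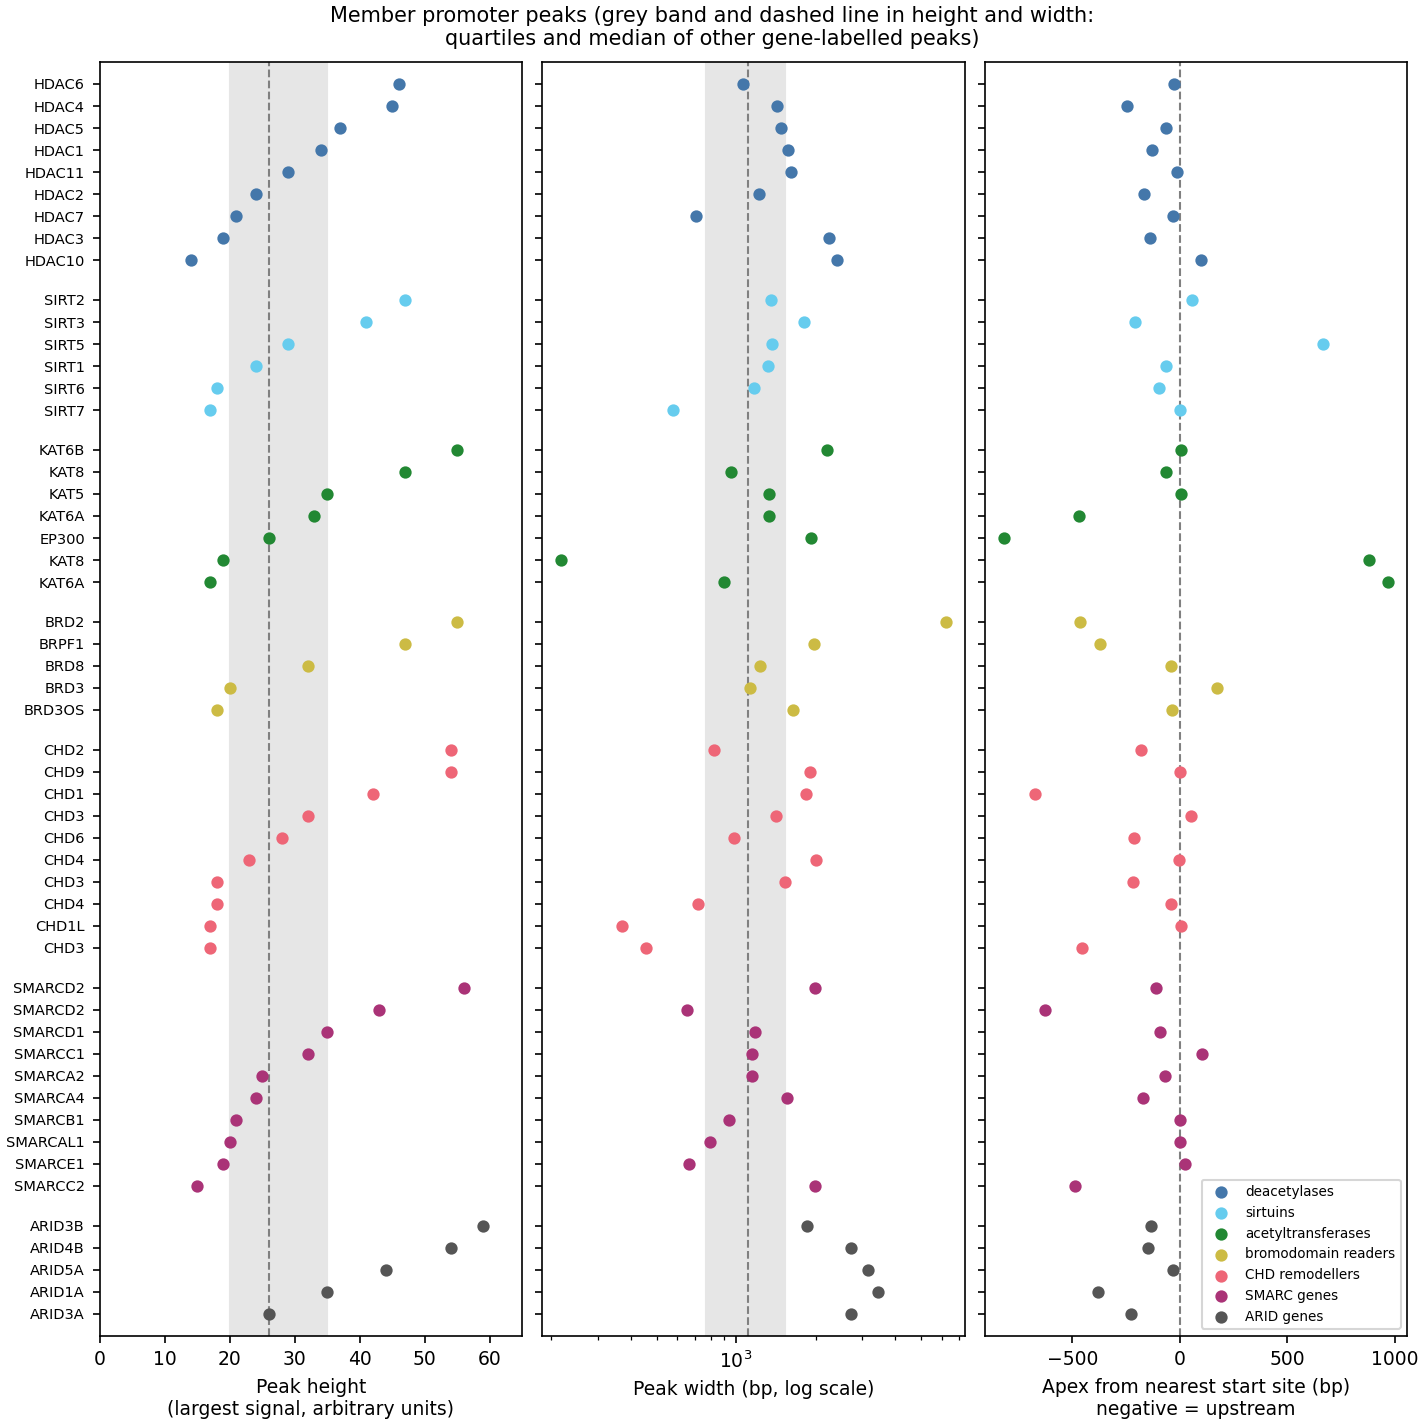
Height (largest signal, arbitrary units), width (bp, log scale) and apex position (bp from the nearest start site of the labelled gene, negative upstream) of the 52 member peaks, 1 point per peak, coloured by group. Grey bands and dashed lines give the quartiles and medians of other gene-labelled peaks; the 5 ARID peaks are all at or above both medians, and every apex is within 1 kb of a start site.

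Among the deacetylases the median height was 29. HDAC6, a largely cytoplasmic tubulin deacetylase, had the highest peak (chrX:48659912-48660974), with a height of 46, a width of 1063 bp and a total signal of 18991. Its apex was 29 bp upstream of an internal start, 508 bp from the outermost 5′ end of the gene. HDAC4, a signal-responsive deacetylase that moves between nucleus and cytoplasm, followed with a height of 45. HDAC10, a polyamine deacetylase, had the lowest of all member peaks and the widest deacetylase peak (chr22:50688684-50691096). Its height was 14 and its width 2413 bp, wider than 94.6% of the other gene-labelled peaks. The total signal was 12172 and the apex was 99 bp downstream of the nearest annotated start, in exon 2. HDAC3 was likewise low (19) and wide (2248 bp). HDAC1 and HDAC2, which are close paralogs, had heights of 34 and 24.

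In the sirtuins, heights ran from 17 in SIRT7, a nucleolar deacylase, to 47 in SIRT2, a mostly cytoplasmic one. The SIRT2 peak (chr19:39389664-39391014) was 1351 bp wide with a total signal of 19803 and an apex 54 bp downstream of the nearest annotated start. The widest was that of the mitochondrial SIRT3 (chr11:235478-237286), with 1809 bp, a height of 41 and a total signal of 16385. Its apex was 210 bp upstream of the nearest annotated start. SIRT1, the nuclear founding member, had a height of 24, SIRT5 of 29 and SIRT6 of 18.

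KAT6B, which encodes the catalytic subunit of a MYST acetyltransferase complex, had the highest and widest acetyltransferase peak (chr10:76584735-76586949). Its height of 55 exceeded that of 97.2% of other gene-labelled peaks, its width was 2215 bp and its total signal 41541. Its apex was 3 bp downstream of an internal start, 1525 bp from the outermost 5′ end of the gene. KAT5 had a height of 35 and EP300 a height of 26, at the median of the other peaks.

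The bromodomain group held the widest member peak. The peak over BRD2 (chr6:32934975-32941179) was 6205 bp wide, more than 99.9% of other gene-labelled peaks, with a height of 55 and a total signal of 96822. Its apex was 466 bp upstream of the nearest annotated start but within exon 2 of the canonical transcript, since BRD2 has several start sites. BRPF1 had a height of 47, BRD8, a subunit of the TIP60 complex, of 32, BRD3 of 20 and BRD3OS of 18.

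CHD2 and CHD9 shared the greatest height of the CHD group, 54. The CHD2 peak (chr15:93447298-93448120) was 823 bp wide, with a total signal of 13287. Its apex was 182 bp upstream of an internal start, in intron 2, and 18088 bp from the outermost 5′ end of the gene. The CHD9 peak (chr16:53132386-53134287) was broader, with 1902 bp and a total signal of 36328, and its apex was at an internal start in intron 1, 44189 bp from the outermost 5′ end. The widest peak, with 2003 bp, belonged to CHD4. CHD1, which binds methylated histone tails, had a height of 42, CHD6 of 28 and CHD1L, a remodeller recruited to DNA damage, of 17.

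In the SMARC genes, SMARCD2, a SWI/SNF subunit required for granulocyte development, had the highest and widest peak. The ATPase genes SMARCA4 and SMARCA2 had heights of 24 and 25, below the median of other peaks. The core subunit genes SMARCB1, SMARCC1 and SMARCC2 had heights of 21, 32 and 15. The SMARCC2 peak was 1994 bp wide and kept its largest signal over 607 bp, and 20 of the 15412 peaks, itself included, were no higher.

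The ARID genes had the largest median height (44) and width (2726 bp) of the 7 groups, with 5 peaks. ARID3B had the highest of all member peaks (chr15:74832634-74834484), with a height of 59, above 98.5% of other gene-labelled peaks, a width of 1851 bp, a total signal of 27238 and an apex 134 bp upstream of the start. ARID1A, the DNA-binding subunit of the BAF form of SWI/SNF, had the widest ARID peak (chr1:27021516-27024958), with 3443 bp, a height of 35, a total signal of 32899 and an apex 383 bp upstream of the nearest start. Heights were 54 for ARID4B, a subunit of the SIN3 deacetylase complex, 44 for ARID5A and 26 for ARID3A. Without the 5 ARID peaks, 32 of 47 members (68.1%) were at or above the median width.

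**Figure D3:**
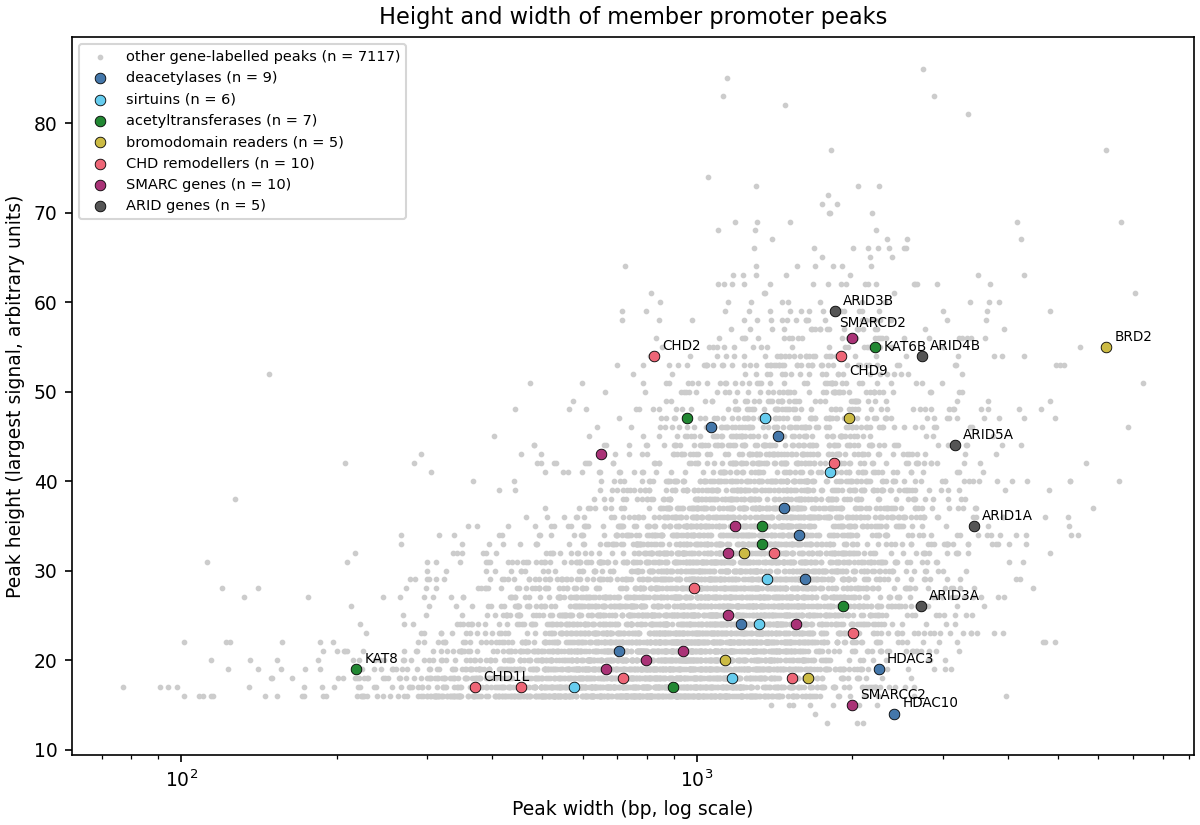
Height (largest signal, arbitrary units) against width (bp, log scale) of each gene-labelled peak, with the 52 members coloured by group and the other 7117 in grey. BRD2 is at the far right with 6205 bp and a height of 55, and HDAC10 and SMARCC2 combine widths of 2413 and 1994 bp with heights of 14 and 15.

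Of the 46 genes, 5 (10.9%) had more than 1 labelled peak, close to the 8.42% of all labelled genes. CHD3 had 3, at chr17:7788893-7790422, chr17:7790723-7792133 and chr17:7792427-7792882, with heights of 18, 32 and 17 and widths of 1530, 1411 and 456 bp. Their total signals were 9532, 14757 and 2953, and their apexes were 219 bp upstream, 52 bp downstream and 454 bp upstream of the nearest of several CHD3 starts. The middle peak was thus the highest.

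CHD4 had peaks at chr12:6715166-6717168 and chr12:6717288-6718005, with heights of 23 and 18, widths of 2003 and 718 bp, total signals of 13600 and 4642, and apexes 5 and 40 bp upstream of a start. The SMARCD2 peaks at chr17:61918768-61920762 and chr17:61920970-61921621 had heights of 56 and 43, widths of 1995 and 652 bp, total signals of 31117 and 6869, and apexes 110 and 626 bp upstream. Both SMARCD2 peaks were above the median height of other gene-labelled peaks.

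KAT6A and KAT8 each had a higher, wider peak and a lower, narrower one. For KAT6A, the peaks at chr8:41909184-41910518 and chr8:41908191-41909086 had heights of 33 and 17, widths of 1335 and 896 bp, total signals of 16618 and 4838, and apexes 471 bp upstream and 968 bp downstream. For KAT8, those at chr16:31128689-31129642 and chr16:31127783-31128000 had heights of 47 and 19, widths of 954 and 218 bp and total signals of 18681 and 1986. Their apexes were 66 bp upstream and 878 bp downstream of the nearest of several KAT8 starts, and the lower peak was the narrowest of all members.

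The apexes were close to start sites, as the promoter label requires. All 52 were within 1 kb of an annotated start of the labelled gene, against 92.3% of the other peaks with such a start, at median distances of 107 and 102 bp. Distances are to the nearest of all annotated starts, and in 17 of the 52 peaks, those of 13 genes, the apex was over 1 kb inside the outermost 5′ end of the gene. Within 200 bp were 35 members (67.3%) and 71.8% of others. In 3 members (5.77%), against 14.2% of others, the nearest protein-coding start belonged to another gene: RELL2 for HDAC3 (10 bp), ANKRD24 for SIRT6 (26 bp) and GGPS1 for ARID4B (33 bp). A protein-coding start of another gene on the opposite strand, within 1 kb to either side, was found at 7 members (13.5%) and at 16.6% of others. Besides the 3 above, these were NFKBIB beside SIRT2, PSMD13 beside SIRT3, KIF20A beside BRD8 and FMO5 beside CHD1L. A peak at such a place cannot be assigned to 1 of the 2 genes.

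Unlabelled peaks over the genes were also found. Of the 46 labelled genes, 13 (28.3%) had an unlabelled peak with its apex in the gene body, against 1210 of 6025 labelled protein-coding genes (20.1%), without matching on gene length. Over all 72 genes there were 33 such peaks over 19 genes, with heights from 16 to 75 and a median of 24. Of the 33, 10 had their apex within 1 kb of an annotated start of the same gene. The highest was in ARID3B (chr15:74838127-74839082), 1909 bp downstream of an internal start, which is not the start beside its promoter peak. Its height of 75 was greater than that of its promoter peak and of 99.9% of all peaks. ARID1A had peaks of height 41 and 44 over 1 kb from a start, SMARCA4 had a peak of 41, and CHD9 held 4 unlabelled peaks, the highest with a height of 43. The CHD4 peak of height 44 was instead 55 bp from an annotated start. The deacetylase genes HDAC4, HDAC5, HDAC7 and HDAC11 had unlabelled peaks too, and the highest of these, in HDAC7 (35) and HDAC5 (33), were within 1 kb of a start.

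The sequence around the apex was rich in GC boxes. GGGCGG, the site of SP and KLF factors, was found on either strand within 200 bp of the apex in 47 of 52 members (90.4%, interval 79.4 to 95.8%) and in 76.1% of other gene-labelled peaks. The median GC content of these 401-bp windows was 65.1% in members and 64.3% in others, and the median CpG count was 34.5 and 33. The ETS core CCGGAAGT was found in 0 of 52 members, which allows a share of up to 5.77% by a limit of 3 counts (6.88% by Wilson's method), and in 8.84% of others. With the shorter letters CGGAAG, chosen after the values were seen, it was found in 16 members (30.8%) and 39.5% of others.

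AGGTCA, shown above for 4 peaks, was in 5 members (9.62%, interval 4.18 to 20.6%) and in 16.6% of others. GAGGAAGT was in 4 members (7.69%) and 5.26% of others. The E-box CACGTG was in 3 members (5.77%) and 12.6% of others, and CCAAT in 20 (38.5%) and 44.2%. The NRF1 core CGCATGCG was found in 3 members (5.77%) and 4.19% of others, and the AP-1 site TGACTCA in 3 members (5.77%) and 5.69% of others. The letters CCGGAAGT and GAGGAAGT share their last 6 bases but cannot match at the same place. A match of letters is a description of the sequence and not evidence of a bound factor.

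**Figure D4:**
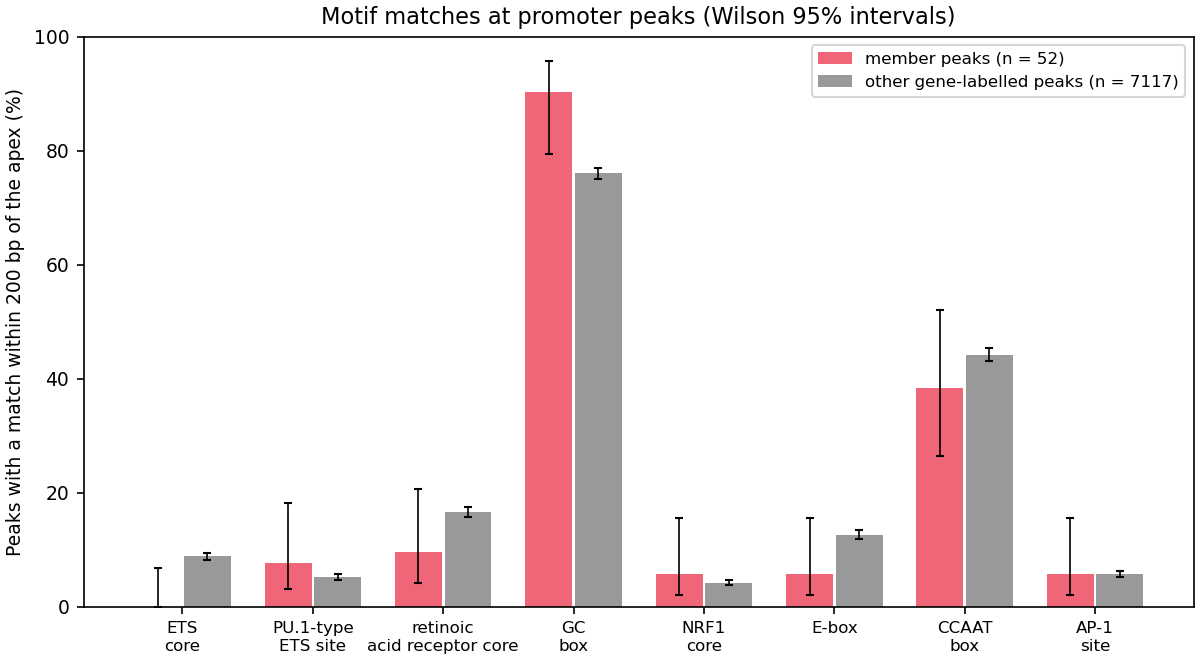
Share of peaks, in percent, with each motif on either strand within 200 bp of the apex, for the 52 member peaks and the 7117 other gene-labelled peaks, with Wilson 95% intervals as error bars. The retinoic acid receptor core is AGGTCA; the GC box stands at 90.4% in members and 76.1% in others, and the ETS core at 0 of 52 and 8.84%.

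Other chromatin genes that the symbol rule does not take gave a like share. Of 104 genes in 6 lists, 64 (61.5%, interval 51.9 to 70.3%) had a promoter label, against 30.0% of all protein-coding genes. Their 70 peaks had a median height of 23 and a median width of 1091 bp. The share was 7 of 9 in ISWI partners, where BAZ1B had a height of 49, 16 of 24 in INO80, SRCAP and TIP60 complex genes, 11 of 17 in other SWI/SNF subunits and 16 of 25 in acetyltransferase partners, where MSL2 had a height of 61. Of other NuRD subunits 6 of 10 were labelled, among them GATAD2B with a height of 55, GATAD2A with 48 and MTA2 with 37. Other bromodomain genes had the smallest share, 8 of 19, with TRIM24 at a height of 45. These genes thus had a promoter label about as often as the families of the rule, while their peaks were lower and narrower at the median.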

How the data were processed

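Cut&Run reads of U937-PR9 cells were processed by the authors: trimming with Trimmomatic, Bowtie2 alignment to hg19, removal of duplicates (Samtools) and of blacklisted reads (Bedtools), SEACR calls against paired controls, and selection of peaks that were reproducible over 2 replicates by the irreproducible discovery rate. No column of per-sample values was left unmapped. Versions are not given in the sources used here. The authors deposited 1 signal per peak, summed over it, and 1 score per peak, its largest signal. What these columns hold was read from their values, since total signal was below height times width in all 15412 peaks. Whether they are scaled, pooled or from 1 replicate is not stated. Gene symbols are the authors' own, given where an apex overlapped a promoter of UCSC known genes. 

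Start sites came from GENCODE release 44 on GRCh37, and 187 other labelled peaks had no start of their symbol there. The apex was the midpoint of the interval of largest signal. Motifs were counted in 401-bp windows, with an exact letter match. Medians were compared with no test. Full values are given for the highest and widest peak of each group, genes with several labelled peaks and the lowest member, and other values were added after they were seen. Members, gene lists and motifs were chosen with earlier results of these data known. The motif search, the search for the nearest start site, the merging of neighbouring peaks and the symbol rule were tested on simulated data. Python 3.11.15, numpy 2.4.6, pandas 2.3.3, scipy 1.17.1, pysam 0.24.0, samtools 1.23.1 and matplotlib 3.10.9 were used. Some items are not reported here.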

Additional observations from a re-analysis of the deposited data

How the results depend on the processing

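No paired analysis was possible because separate values for the replicates of a peak are not given, and for that reason leaving out a replicate was not possible either. With peaks at or above the median height of all peaks only, 31 member peaks of 30 genes remained. Of these, 22 (71.0%) were at or above the median height of the other labelled peaks so kept, against 53.5% of those others. In this setting 41.7% of the family genes were labelled, against 17.5% of protein-coding genes. By an apex within 1 kb of a start site the family share was 75.0% (39.3% of protein-coding genes), and over annotated genes of every type, which adds pseudogenes and noncoding genes, it was 45.1% (10.3% of all genes). Merging neighbouring peaks, 1 peak per gene, the wider peaks only, protein-coding symbols only, total signal for height, and classes of width or height moved no share beyond its interval. The following were chosen after seeing the data. Without BRD3OS and CHD9NB, 64.3% of family genes were labelled. The ETS core was in 1.92% of members in windows at the start site (8.82% of others) and in 5.77% within 500 bp of the apex (11.3%). With the shorter letters CGGAAG the share was 30.8% (39.5%), beyond the interval for CCGGAAGT. The GC box was in 88.5% of members at the start site (78.7%) and in 91.3% with 1 peak per gene (78.0%).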
